A study of Homo sapiens with 12 samples.

Results

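The 38 genes described here code for enzymes, transporters and regulators of glycolysis and for targets of the hypoxia-inducible factors (HIF). They were chosen by symbol, as 38 of the 31681 rows of a gene expression matrix, from a list drawn up with earlier results of these data known. The matrix comes from a study of temozolomide resistance in human glioblastoma cells and gives expression in FPKM (fragments mapped to a gene, scaled by transcript length and by the size of the library) for 12 RNA sequencing libraries. No label names that unit, which was inferred from the values. All 38 genes reached 1 FPKM in 3 or more libraries, the minimum for testing, as did 15449 genes in all. ALDOC, CA9 and CA12 were below 1 FPKM in every U251MG library and met this minimum through other lines.

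U251MG and U87MG are established glioblastoma lines. U251TR and U87TR are the resistant lines that the submitters selected from them in culture under rising doses of temozolomide, a drug that alkylates DNA. Each line had 3 libraries. Only 1 resistant line was derived from each parent, so resistance and any other change gained during selection cannot be told apart. Whether the 3 libraries of a line stem from separate cultures is not stated in the labels. The p-values therefore cover the spread among these libraries alone, which may be technical. All lines were kept in the same medium in a standard incubator. The labels used here state neither the oxygen level nor the cell density at harvest, nor whether temozolomide was present then. The U87TR libraries carry codes from a separate number block, so in U87 code block and resistance cannot be told apart.

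In glycolysis glucose enters the cell through facilitative transporters and is split into pyruvate, which lactate dehydrogenase reduces to lactate for export by monocarboxylate transporters. HIF1A and EPAS1 code for the oxygen-regulated HIF subunits, which prolyl hydroxylases such as those coded by EGLN1 and EGLN3 mark for breakdown while oxygen is available. When oxygen is low, the subunits pair with ARNT, bind short DNA elements and switch on genes of glucose uptake, glycolysis, pH control and vessel growth, a response well known from the hypoxic zones of glioblastoma. Control of HIF is largely at the protein level, so transcript levels of HIF1A and EPAS1 do not measure HIF activity.

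The HIF-binding element has the core ACGTG or GCGTG, and both were searched on both strands (CACGT and CACGC when read on the other strand) in RefSeq promoter windows of GRCh38.p14, which run from 250 bases before to 50 bases after each gene's start. Windows were present for 32 of the 38 genes, all except SLC2A3, SLC16A1, PDP1, VEGFA, NDRG1 and BNIP3L. At least 1 match was found in 24 of the 32 windows (75%), against 48.4% of all 27305 windows. ACGTG alone was in 40.6% of the members' windows against 21.6% of all windows, and GCGTG in 50% against 36.3%. The palindrome CACGTG, which counts as 2 overlapping matches, was in 15.6% against 7.43%. The windows of all genes were not matched to those of the members in base composition or expression. The members were also chosen in part as HIF targets, and what lies behind the higher shares was not tested. A stretch for each of 5 genes upstream of the gene's start is printed, with matches in capitals. BNIP3, LDHA, ALDOC and PGK1 had the most matches among the genes that were at least 1.5-fold higher in 1 U87MG library described below, and CA9 had the widest difference there on the scale of FPKM + 1. They were chosen after the values were seen.
BNIP3 (chr10:131981968-131982173, minus strand): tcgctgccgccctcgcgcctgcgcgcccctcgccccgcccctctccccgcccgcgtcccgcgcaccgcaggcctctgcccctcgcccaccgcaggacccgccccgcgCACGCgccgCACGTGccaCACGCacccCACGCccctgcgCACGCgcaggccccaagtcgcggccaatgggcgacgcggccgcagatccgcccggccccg
LDHA (chr11:18394313-18394559, plus strand): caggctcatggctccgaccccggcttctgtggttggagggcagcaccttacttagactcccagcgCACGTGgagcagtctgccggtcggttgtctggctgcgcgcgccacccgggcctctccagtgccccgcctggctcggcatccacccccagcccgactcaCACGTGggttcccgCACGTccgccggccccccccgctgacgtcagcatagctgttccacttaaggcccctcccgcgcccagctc
ALDOC (chr17:28576949-28577145, minus strand): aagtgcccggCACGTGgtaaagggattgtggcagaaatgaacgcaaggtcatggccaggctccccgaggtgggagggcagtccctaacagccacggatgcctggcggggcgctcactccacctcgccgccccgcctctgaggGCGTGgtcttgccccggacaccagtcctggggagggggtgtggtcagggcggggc
PGK1 (chrX:78103998-78104247, plus strand): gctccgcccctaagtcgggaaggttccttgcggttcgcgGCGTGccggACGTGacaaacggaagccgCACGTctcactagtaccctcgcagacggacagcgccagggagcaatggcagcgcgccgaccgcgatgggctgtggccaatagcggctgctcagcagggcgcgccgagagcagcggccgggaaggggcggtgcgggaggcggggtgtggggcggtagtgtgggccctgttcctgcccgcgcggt
CA9 (chr9:35673897-35673926, plus strand): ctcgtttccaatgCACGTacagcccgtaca
The printed stretches hold 6 matches for BNIP3, 5 for LDHA, 3 each for ALDOC and PGK1, and 1 for CA9. A match is a run of letters and was not tested as a binding site.

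The 12 libraries summed to between 695282 and 785754 FPKM, and read depth is unknown because the matrix holds no counts. A parental library stood apart in each line, with rank correlations across genes to its 2 partners of 0.977 and 0.978 for U251MG replicate 2 and of 0.983 and 0.987 for U87MG replicate 3, where the other pair in each line reached 0.993. Of the glial and neural stem markers, VIM was abundant in all 4 lines (group means 817 to 4917 FPKM), whereas SOX2 averaged 220 FPKM in U251MG and was at 0 in each U87MG library. GFAP, the astrocyte filament gene, averaged 22.8 FPKM in U251MG, 396 in U251TR, 0.753 in U87MG and 1.75 in U87TR. Most other markers of that list had lower means in U251TR than in U251MG. VIM averaged 1702 FPKM in U251MG and 817 in U251TR, NES 196 and 42.6, and SOX2 220 and 113. SLC1A3 averaged 175 and 33.2 FPKM, S100B 9.87 and 1.89, and FABP7 214 and 148. OLIG2 (3.44 and 3.89 FPKM) and AQP4 (0 and 0.12 FPKM) were slightly higher in U251TR. In each U87 line 5 of the 9 glial and neural stem markers averaged under 1 FPKM, while SLC1A3, a glial glutamate transporter gene, averaged 17.5 and 8.88 FPKM and NES, the nestin gene, 7.79 and 25.5 FPKM in U87MG and U87TR. Markers of blood cells (PTPRC, CD14, CD3E) averaged at most 0.49 FPKM in each line, while CD68, a lysosomal gene, averaged 196 FPKM in U87MG and 332 in U87TR. Rows named as pseudogenes of the 38 genes reached at most 2.77 FPKM and rows named as antisense at most 2.53 FPKM. Whether strand was used in counting is not given in the sources used here.

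U87MG replicate 3 had higher levels of hypoxia response and glycolytic genes than the other U87MG libraries. It was the highest of the 3 U87MG libraries for 34 of the 38 genes (and for 5276 of the 15449 genes tested). For 25 of them (65.8%, against 4.05% of all genes tested) it was at least 1.5-fold above the mean of replicates 1 and 2, on the scale of FPKM + 1. The carbonic anhydrase gene CA9, a standard marker of hypoxia, stood at 28.05, 55.34 and 310.14 FPKM in U87MG replicates 1 to 3. NDRG1, a stress-response gene induced by hypoxia, stood at 107.37, 190.64 and 733.68 FPKM. In both genes replicate 3 lay far above its 2 partners, 7.69-fold for CA9 and 5.1-fold for NDRG1. PDP1, which codes for a phosphatase that activates pyruvate dehydrogenase, was the only member at least 1.5-fold lower there, at 19.38 against 32.56 and 32.63 FPKM (2.21% of all genes tested were lower by that much). Of another 29 hypoxia-induced genes tested that are not among the 38, 23 (79.3%) were also at least 1.5-fold higher in replicate 3, compared with 0 of 10 other glycolytic genes. Mitochondrially encoded transcripts, read as a sign of RNA quality, summed to between 59841 and 64053 FPKM in the 3 U87MG libraries. Among the markers, COL1A1 was at 182 FPKM in replicate 3 against a mean of 94.6 in the others and GFAP at 1.41 against 0.425, and their part in the result was not tested. The counts of called genes and the main fold changes that involve U87MG are therefore given with and without replicate 3.

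U251MG replicate 2 differed less in these genes and in both directions, with a median log2 difference of -0.08. It was the highest of the 3 U251MG libraries for 16 of the 38 genes and the lowest for 18 (7461 and 5436 of the 15449 genes tested). Differences of at least 1.5-fold were mostly downward. Of the 38 genes, 7 (18.4%, against 5.64% of all genes tested) were at least 1.5-fold below the mean of replicates 1 and 3 and 1 was at least 1.5-fold above it (8.4% of all genes). HIF1A was at 326.4, 135.15 and 335.84 FPKM in U251MG replicates 1 to 3, and EPAS1 at 10.94, 3.36 and 10.23 FPKM. VEGFA, which codes for the main vessel growth factor, was at 484.84, 210.97 and 433.23 FPKM. In each of these 3 genes replicate 2 was the low library. LDHA was the gene at least 1.5-fold above the mean there, at 13.59 FPKM against 7.67 and 8.99.

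**Figure D1:**
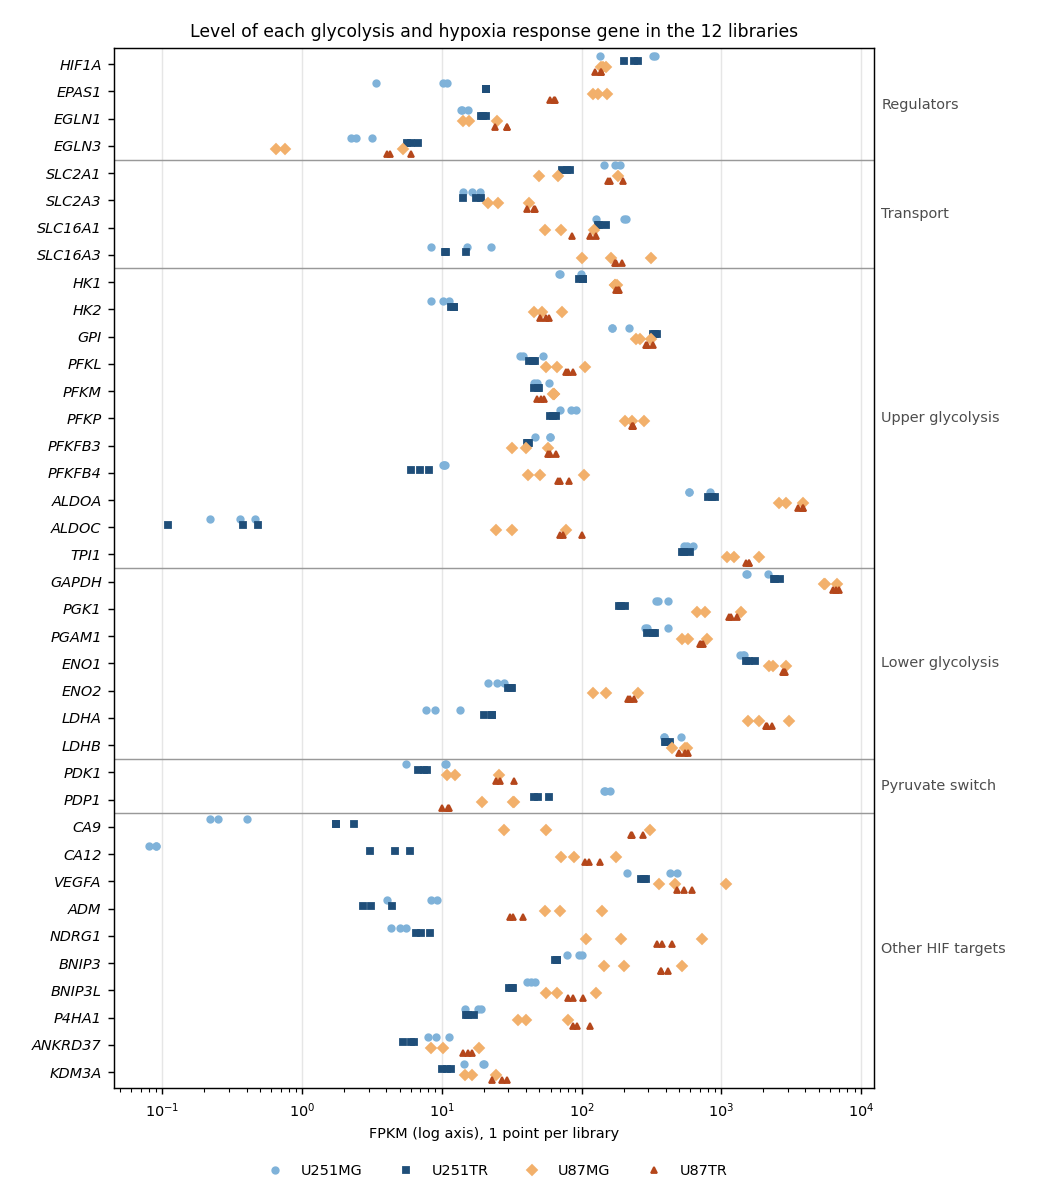
Level of each of the 38 genes in FPKM on a log axis, with 1 point per library, 4 lines by colour and shape, and genes grouped by role. LDHA, ALDOC, CA9 and CA12 span several orders of magnitude between the U251 and U87 libraries, and the U87MG points of most HIF targets are spread, with replicate 3 at the right.

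U87MG was compared with U251MG to show how the parental lines differed as sampled here. Most of the 38 genes were higher in U87MG, and they took up 2.75% ± 0.66 (SD, n = 3) of all FPKM there against 0.966% ± 0.062 (SD, n = 3) in U251MG. In the limma fit of log2(FPKM + 1) over all 12 libraries, with a two-sided test, Benjamini-Hochberg adjustment over the 15449 genes and a threshold of 0.05, 31 of 38 passed. Of these 27 were higher in U87MG and 4 lower, or 81.6% of the 38, against 72.3% of all genes tested (32.2% higher and 40.1% lower). The median log2 fold change was 1.04 for the 38 and -0.092 for all genes tested. Without U87MG replicate 3 the count was 32 (27 higher, 5 lower, against 69.9% of all genes, 31.2% higher and 38.7% lower) and the median 0.82. By role, 10 of 11 genes of upper glycolysis, 6 of 7 of lower glycolysis and 7 of 10 other HIF targets were higher, whereas 2 of the 4 transporters were higher and 2 lower. Without U87MG replicate 3 these counts of higher genes were the same except for lower glycolysis, with 7 of 7 higher. In 27 genes every U87MG library was above the U251MG libraries (32% of all genes tested) and in 2 every one was below (40.3%). In bulk RNA fewer expressing cells and less RNA per cell cannot be told apart.

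LDHA, which codes for the muscle-type subunit of lactate dehydrogenase, showed the widest gap on the scale of FPKM + 1. It was at 7.67, 13.59 and 8.99 FPKM in the U251MG libraries and at 1562.59, 1874.09 and 3073.4 FPKM in the U87MG libraries without overlap. The log2 fold change was 7.59 (SE 0.23, limma adjusted p = 2.77e-11). CA12, which codes for another membrane-bound carbonic anhydrase, was at 0.09, 0.09 and 0.08 FPKM in U251MG and at 71.22, 88.33 and 177.33 FPKM in U87MG (log2 fold change 6.59, SE 0.28, limma adjusted p = 6.8e-10). CA9 was at 0.4, 0.25 and 0.22 FPKM in U251MG, also without overlap with U87MG (log2 fold change 5.96, SE 0.62, limma adjusted p = 4.17e-06). Because of the added 1 FPKM, these fold changes understate the differences of genes near 0, and with 0.1 FPKM added CA12 had a wider gap (9.12) than LDHA had in any alternative run (at most 7.8). ALDOC, the brain-type aldolase gene, was likewise almost silent in U251MG, at 0.36, 0.46 and 0.22 FPKM, against 24.38, 31.56 and 77.01 FPKM in U87MG (log2 fold change 4.90). EPAS1 was at 121.2, 131.43 and 153.17 FPKM in U87MG, above every U251MG library (log2 fold change 4.02, SE 0.29, limma adjusted p = 1.17e-07). The other 5 of the 10 widest on the scale of FPKM + 1 were NDRG1 (log2 fold change 5.38), the lactate exporter gene SLC16A3 (3.51), ADM, which codes for the vasodilator peptide adrenomedullin (3.39), the neuronal enolase gene ENO2 (2.70) and PFKFB4 (2.44), and all had groups that did not overlap. For the further 17 genes higher in U87MG, log2 fold changes ran from 0.32 (PFKM) to 2.38 (HK2). The 10 widest all still passed without U87MG replicate 3, with log2 fold changes of 7.31 for LDHA, 6.21 for CA12, 4.97 for CA9, 4.6 for NDRG1, 4.42 for ALDOC, 3.93 for EPAS1, 3.08 for SLC16A3, 3.00 for ADM, 2.40 for ENO2 and 2.05 for PFKFB4.

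The 4 genes lower in U87MG were PDP1, SLC16A1, SLC2A1 and HIF1A. PDP1 was at 148.04, 159.74 and 144.24 FPKM in U251MG and at 32.56, 32.63 and 19.38 FPKM in U87MG, with no overlap (log2 fold change -2.41, SE 0.17, limma adjusted p = 6.71e-08). SLC16A1, which codes for the widely expressed monocarboxylate transporter, was lower by a log2 fold change of -1.15 (SE 0.27, limma adjusted p = 0.00214), also without overlap. Both also passed without U87MG replicate 3, at -2.17 for PDP1 and -1.47 for SLC16A1. SLC2A1, the gene of the ubiquitous glucose transporter, was at 187.79, 143.64 and 174.93 FPKM in U251MG and at 49.44, 67.57 and 181.87 FPKM in U87MG, so its groups overlapped through replicate 3 (log2 fold change -0.98, limma adjusted p = 0.0242). Its log2 fold change was -1.52 without that library. The SLC2A1 call was lost when U251MG replicate 1 or 3 or U87MG replicate 1 or 2 was left out (highest adjusted p = 0.11). It was also lost without a filter on low values and in the fit on the compared libraries alone. HIF1A was at 143.37, 150.26 and 137.84 FPKM in U87MG, within the range of U251MG because of U251MG replicate 2 (log2 fold change -0.77, SE 0.27, limma adjusted p = 0.0209). Without U251MG replicate 2 its log2 fold change was -1.20 (limma adjusted p = 2.99e-07). The call for HIF1A was lost without U251MG replicate 1 or 3 or U87MG replicate 3 and in the fit on the compared libraries alone (highest adjusted p = 0.0949 over the alternatives). PDK1, the gene of a kinase that shuts off pyruvate dehydrogenase, was called higher (log2 fold change 0.76, limma adjusted p = 0.0316). That call was lost without U87MG replicate 3 (0.40, adjusted p = 0.144) and without U251MG replicate 2. It was also lost without a filter on low values and in the fit on the compared libraries alone. EGLN1, EGLN3, PFKFB3, LDHB, VEGFA, ANKRD37 and KDM3A did not pass the test between the parents with all libraries, and without U87MG replicate 3 EGLN3 and PFKFB3 were called lower in U87MG (limma adjusted p = 0.000124 and 0.00132) and LDHB was called higher (0.38, adjusted p = 0.0121).

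U251TR was then compared with its parent U251MG. In U251TR, GPI, GAPDH, LDHA, EPAS1 and CA12 rose, while PGK1, PDP1, SLC2A1 and KDM3A fell, so that genes of one pathway moved in both directions. Of the 38 genes 14 passed the threshold, 7 higher and 7 lower. That is 36.8% of the genes, against 53.2% of all genes tested (33.6% higher, 19.6% lower). The median log2 fold change was -0.059 for the 38 and 0.096 for all genes tested. The balance of directions moved with the scaling, with 10 higher and 4 lower when each library was rescaled to a common sum, 5 and 9 with median-of-ratios size factors, and 8 and 9 with quantile normalization. Rescaling to a common sum shifted the median of all genes to 0.197. The count was 8 without U251MG replicate 1 (46.7% of all genes were called then) and 8 without U251MG replicate 3 (46.6%). It was 23 (12 higher, 11 lower, against 55% of all genes, 34.6% higher and 20.4% lower) without U87MG replicate 3, a library that enters this comparison only through the shared estimate of the spread. It was 17 (8 higher, 9 lower, against 57.8%, 36.9% and 20.9%) without U251MG replicate 2 and 29 (13 higher, 16 lower, against 61.8%, 39.2% and 22.6%) without both. Over all alternatives run, 8 of the 14 calls held (EPAS1, GPI, GAPDH, PGK1, LDHA, PDP1, CA12 and KDM3A), and none of the 14 changed sign. All 14 passed without U251MG replicate 2, where HIF1A, PFKFB3 and ALDOA passed too.

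Among the regulators, EPAS1 was at 20.54, 20.7 and 20.69 FPKM in U251TR, above all U251MG libraries (log2 fold change 1.37, SE 0.29, limma adjusted p = 0.00179). Without U251MG replicate 2, its low library, the log2 fold change was 0.90 (SE 0.091, limma adjusted p = 7.2e-06). HIF1A was at 254.31, 238.8 and 202.93 FPKM in U251TR, between the U251MG libraries, and did not pass (log2 fold change -0.089, SE 0.27, limma adjusted p = 0.809). Its value depended on U251MG replicate 2, without which it was -0.52 (SE 0.092, limma adjusted p = 0.000526). EGLN1, the main HIF prolyl hydroxylase gene, was at 20.85, 19.85 and 19.15 FPKM against 14, 15.29 and 13.71 FPKM, with no overlap (log2 fold change 0.45, SE 0.17, limma adjusted p = 0.0371). That call was lost in 9 of 22 alternatives, and its limma adjusted p ranged from 0.00104 to 0.129 over them all. The losses came when any U251TR library or U251MG replicate 1 or 3 was left out and with median-of-ratios size factors or quantile normalization. They also came with the replicate block and without a filter on low values. EGLN3, a hydroxylase gene that HIF itself induces, was at 5.59, 6.04 and 6.72 FPKM against 3.14, 2.42 and 2.23 FPKM. With all libraries it missed the threshold (limma adjusted p = 0.0526). EGLN3 was called higher in 7 of 22 alternatives (lowest adjusted p = 0.000174), among them the fit on the compared libraries alone and leaving out U87MG replicate 3.

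In the pathway itself, GPI, which codes for the isomerase of the second step, was at 326.55, 335.77 and 345.7 FPKM in U251TR against 165, 217.17 and 166.1 FPKM in U251MG. GAPDH, the dehydrogenase gene of the sixth step, was at 2395.86, 2446.17 and 2618.67 FPKM against 1523.7, 2150.85 and 1495.28 FPKM. Neither gene's groups overlapped, with log2 fold changes of 0.89 (SE 0.12, limma adjusted p = 4.84e-05) and 0.55 (SE 0.13, limma adjusted p = 0.0036). PGK1, the kinase gene of the step after GAPDH, was at 186.31, 191.06 and 205.64 FPKM in U251TR against 351.77, 413.98 and 342.3 FPKM in U251MG. It fell by 0.92 on the log2 scale (SE 0.20, limma adjusted p = 0.00237), opposite to its neighbour in the pathway. LDHA was at 20.07, 22.98 and 22.88 FPKM in U251TR, above every U251MG library (log2 fold change 1.09, SE 0.23, limma adjusted p = 0.00154) and still far below the U87 lines. HK1, the gene of the widely expressed hexokinase, rose (log2 fold change 0.35, limma adjusted p = 0.0223), although U251MG replicate 2 at 99.82 FPKM lay within the U251TR range. PFKP, the platelet-type phosphofructokinase gene, fell by 0.37 on the log2 scale (limma adjusted p = 0.0172) with no overlap. The HK1 call was lost with median-of-ratios size factors, in the fit on the compared libraries alone and without U251MG replicate 1 or 3 or U251TR replicate 2 or 3 (highest adjusted p = 0.115 over the alternatives). The PFKP call was lost after rescaling to a common sum and without U251MG replicate 1 or 3 or U251TR replicate 1 (highest adjusted p = 0.0763).

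Of the transporters, SLC2A1 fell. It was at 73.02, 82.52 and 79.3 FPKM in U251TR, below all U251MG libraries (log2 fold change -1.09, SE 0.35, limma adjusted p = 0.0196). The call was lost without U251MG replicate 1 or 3 or U251TR replicate 1 (highest adjusted p = 0.0649). PDP1 was at 48.45, 58.6 and 45.62 FPKM in U251TR, with no overlap and at 0.34 times its parent's level on the scale of FPKM + 1 (log2 fold change -1.55, SE 0.17, limma adjusted p = 1.04e-05). PDK1, whose product opposes that of PDP1, was at 7.42, 6.79 and 7.87 FPKM against 10.54, 5.51 and 10.75 FPKM, and its groups overlapped.

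The other HIF targets split. CA12 was at 5.92, 3.08 and 4.63 FPKM in U251TR, where its parent had less than 0.1 FPKM (log2 fold change 2.32, SE 0.28, limma adjusted p = 2.54e-05). ADM, ANKRD37 and KDM3A fell, by 0.85, 0.59 and 0.68 on the log2 scale (limma adjusted p = 0.047, 0.0374 and 0.00693). KDM3A, which codes for a histone demethylase, was at 11.64, 9.97 and 10.85 FPKM against 19.76, 14.4 and 19.96 FPKM, without overlap. The ADM groups overlapped, and its call was lost in 12 of 22 alternatives, among them leaving out U251MG replicate 1 or 3 or U251TR replicate 2 or 3 (highest adjusted p = 0.168). The call of ANKRD37, an ankyrin repeat gene induced by HIF, was lost in 8 of 22 alternatives (highest adjusted p = 0.132). These were leaving out U251MG replicate 1 or 3 or any U251TR library, rescaling to a common sum, a pseudocount of 5 and no filter on low values. CA9 and VEGFA were singled out after their values were seen. CA9 was at 1.75, 1.74 and 2.34 FPKM in U251TR, above every U251MG library, but missed the threshold (log2 fold change 1.19, SE 0.62, limma adjusted p = 0.13). Without U87MG replicate 3 its SE was 0.20 and its adjusted p 0.000547. VEGFA was at 290.47, 266.2 and 280.9 FPKM, between the U251MG libraries (limma adjusted p = 0.46). In all, 12 of the 38 genes had every U251TR library above the U251MG libraries (36.4% of all genes tested) and 10 had every one below (22.6%), 22 together, against 58.9% of all genes.

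**Figure D2:**
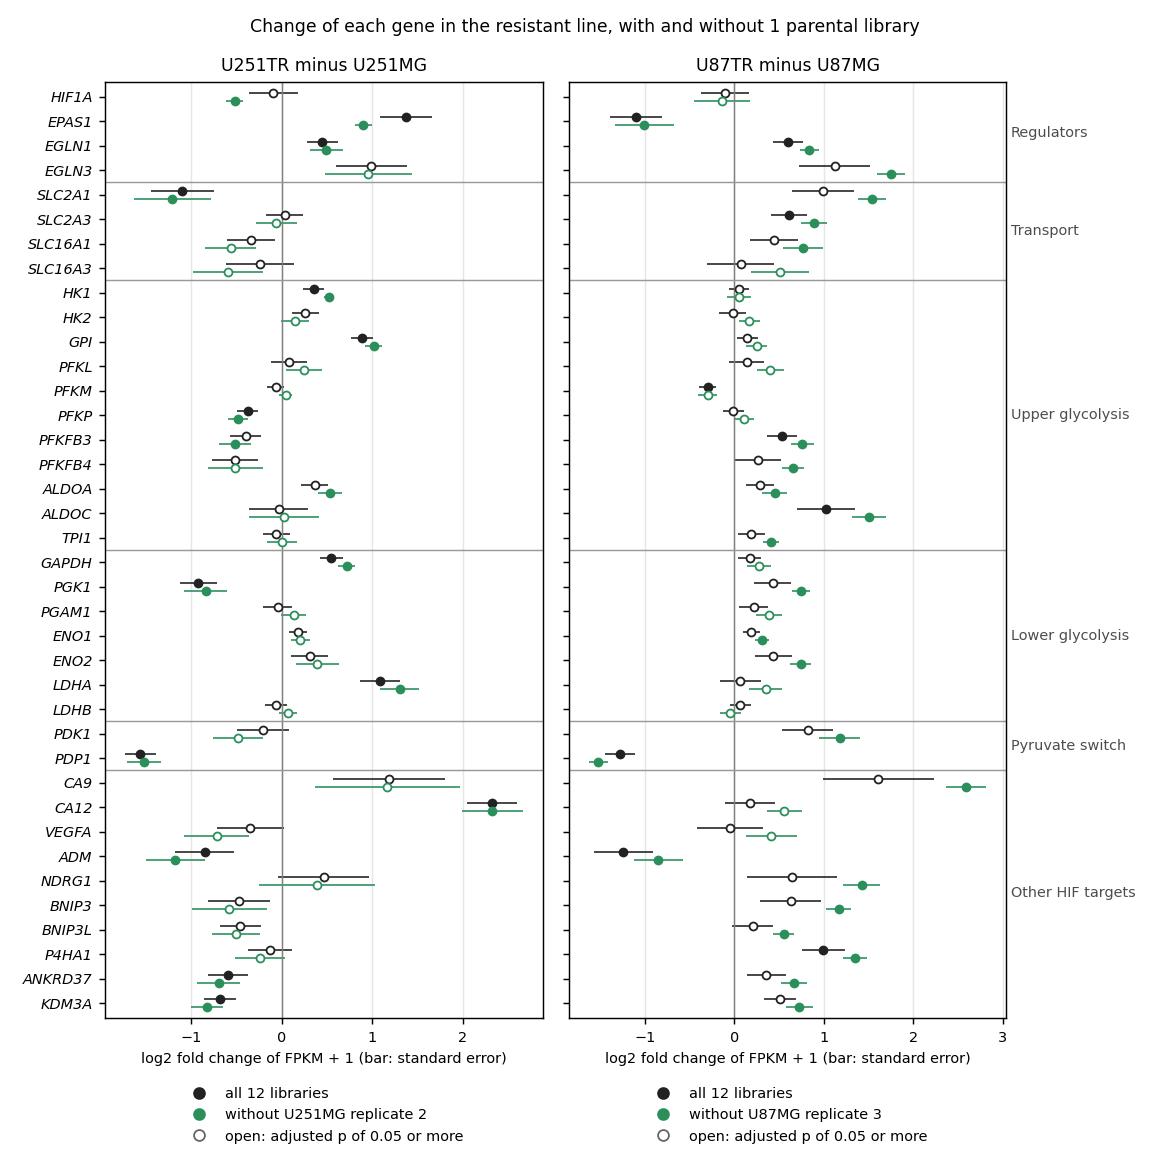
Log2 fold change of FPKM + 1 for each of the 38 genes in U251TR against U251MG (left) and U87TR against U87MG (right), with bars for 1 standard error and open circles for an adjusted p of 0.05 or more. Black circles use all 12 libraries, and green circles leave out U251MG replicate 2 (left) or U87MG replicate 3 (right). On the right most green circles lie above the black ones, which follows from leaving out the library that was highest in U87MG for 34 of the 38 genes. There 21 rises pass the threshold without U87MG replicate 3 against 5 with it.

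In U87TR against its parent U87MG, P4HA1, ALDOC, SLC2A3, EGLN1 and PFKFB3 rose and PDP1, ADM, EPAS1 and PFKM fell. With all libraries 9 of the 38 genes passed, 5 higher and 4 lower. That is 23.7%, against 27.8% of all genes tested (10.6% higher, 17.2% lower). The median log2 fold change was 0.21 for the 38 and -0.049 for all genes tested. The split was 8 higher and 3 lower after rescaling to a common sum, 6 and 3 with median-of-ratios size factors, and 9 and 3 with quantile normalization. Leaving out U87MG replicate 3, the highest U87MG library for 34 of the 38 genes, raises the fold changes of those genes by construction. The count moved with the libraries used. Without U87MG replicate 3 it was 24 (21 higher, 3 lower, or 63.2%, against 28.7% of all genes tested, 11.2% higher and 17.5% lower), and the median was 0.53 against -0.058 for all genes. It was 4 without U87MG replicate 1 (20.9% of all genes were called then), 4 without U87MG replicate 2 (19%), 4 without U87TR replicate 1 (21%), 4 without U87TR replicate 2 (20.4%) and 5 without U87TR replicate 3 (20.3%). Leaving out both libraries that stood apart, U251MG replicate 2 and U87MG replicate 3, gave 32 (28 higher, 4 lower, against 40.9% of all genes, 15.9% higher and 25% lower). EPAS1, PDP1 and P4HA1 kept their calls in all 22 alternatives.

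The 3 U87TR libraries lay above U87MG replicates 1 and 2 in 30 of the 38 genes (24.3% of all genes tested did so). In 18 of the 38 genes they lay above replicates 1 and 2 and also below replicate 3, as did 2.22% of all genes tested. Only genes with replicate 3 highest in U87MG can do so, 34 of the 38 against 5276 of the 15449 genes tested. The contrast thus partly restates the high level of these genes in replicate 3. CA9 was at 273.42, 227.36 and 228.48 FPKM in U87TR, between the levels of U87MG replicates 1 and 2 and the 310.14 FPKM of replicate 3. With all libraries it missed the threshold (log2 fold change 1.61, SE 0.62, limma adjusted p = 0.0776), and without replicate 3 the log2 fold change was 2.59 (SE 0.23, limma adjusted p = 1.5e-05). NDRG1 was at 443.88, 373.91 and 344.39 FPKM, again between replicate 3 and its 2 partners. Its log2 fold change was 0.64 (limma adjusted p = 0.386) with replicate 3 and 1.42 (limma adjusted p = 0.00055) without it. BNIP3, a mitophagy receptor gene, was at 144.32, 200.86 and 524.23 FPKM in U87MG and 412.5, 368.02 and 371.45 FPKM in U87TR (log2 fold change 0.63, limma adjusted p = 0.198, and 1.17, limma adjusted p = 0.000135, without replicate 3). P4HA1 alone of the 38 genes had all U87TR libraries above every U87MG library, as had 18.3% of all genes tested. In HK1 and LDHB the U87TR libraries exceeded replicate 3 but overlapped with the other U87MG libraries. For exceeding replicate 3 no share over all genes was counted. In EPAS1, PFKM, PDP1, ADM and HIF1A (37.6% of all genes tested) all U87TR libraries were below replicates 1 and 2. CA9, NDRG1, BNIP3 and the other uncalled genes given with a fold change in U87 (EGLN3, SLC2A1, PGK1, LDHA and VEGFA) were chosen after their values were seen.

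**Figure D3:**
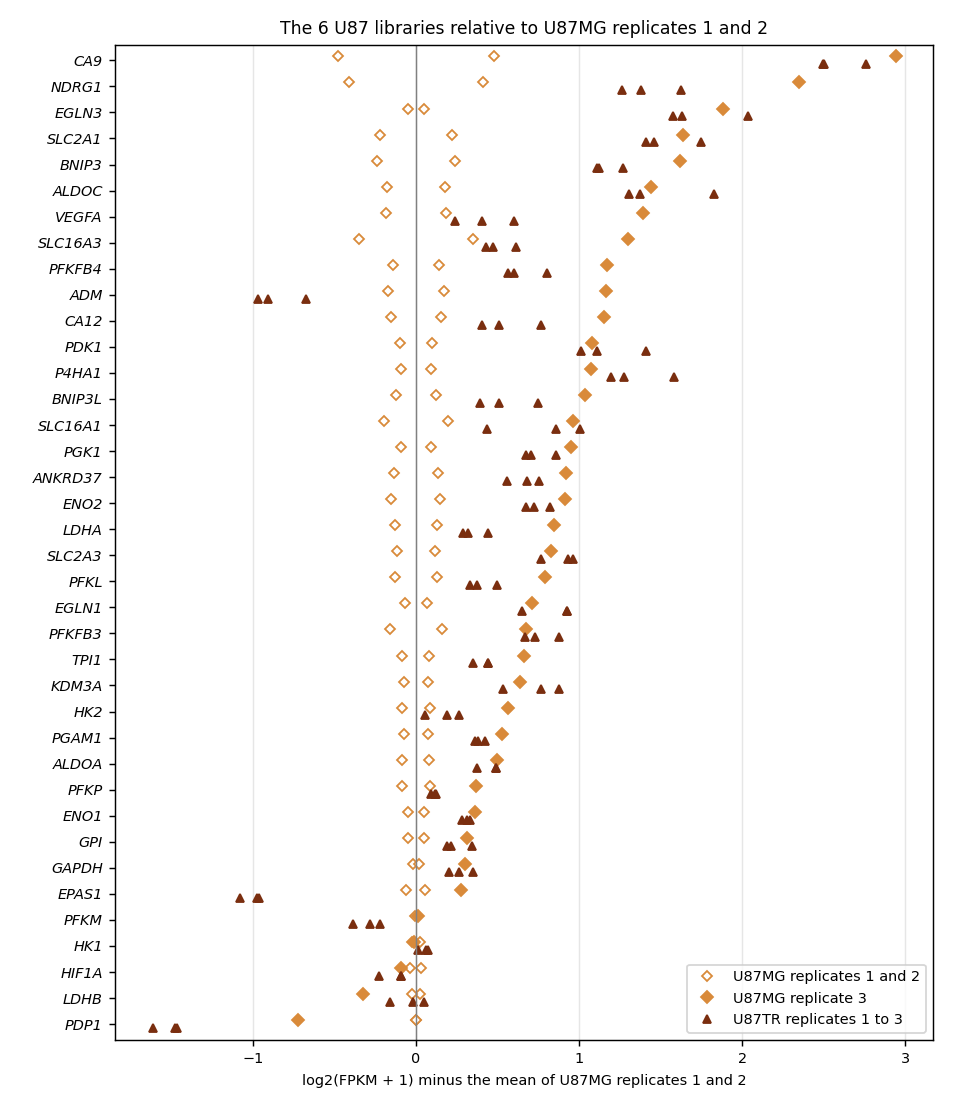
Each of the 6 U87 libraries relative to the mean of U87MG replicates 1 and 2, as a difference in log2(FPKM + 1), for the 38 genes ordered by U87MG replicate 3 (filled diamonds). Open diamonds are U87MG replicates 1 and 2 and triangles the U87TR libraries. In 18 of the 38 genes all 3 triangles fall between the open and the filled diamonds, while in ADM, EPAS1, PFKM and PDP1 they lie left of 0.

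Among the regulators, EPAS1 fell in U87TR. It was at 64.36, 63.64 and 59.33 FPKM, below every U87MG library (log2 fold change -1.10, SE 0.29, limma adjusted p = 0.015, and -1.0, adjusted p = 0.0438, without U87MG replicate 3). HIF1A was at 137.91, 137.81 and 125.05 FPKM and did not pass (log2 fold change -0.11, SE 0.27, limma adjusted p = 0.821, and -0.14, adjusted p = 0.799, without U87MG replicate 3). EGLN1 was at 14.1, 15.62 and 24.89 FPKM in U87MG and at 29.13, 29.16 and 23.83 FPKM in U87TR, with an overlap at replicate 3 (log2 fold change 0.60, SE 0.17, limma adjusted p = 0.0185). Without replicate 3 the EGLN1 rise was 0.83 (limma adjusted p = 0.000198), and the call was lost without U87MG replicate 1 or 2 or U87TR replicate 1 or 2 (highest adjusted p = 0.0796). EGLN3 was at 0.65, 0.76 and 5.29 FPKM in U87MG and 5.99, 4.29 and 4.07 FPKM in U87TR. With replicate 3 its log2 fold change of 1.12 missed the threshold (limma adjusted p = 0.0541), except with quantile normalization, and without replicate 3 it passed at 1.75 (adjusted p = 2.11e-05).

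Of the transport and glycolysis genes, SLC2A3, the gene of the neuronal glucose transporter, was at 21.54, 25.42 and 42.3 FPKM in U87MG and 45.66, 46.63 and 40.49 FPKM in U87TR (log2 fold change 0.61, SE 0.20, limma adjusted p = 0.0412). ALDOC was at 101.18, 73.53 and 70.04 FPKM in U87TR, with U87MG replicate 3 at 77.01 FPKM inside that range (log2 fold change 1.02, SE 0.32, limma adjusted p = 0.0345). PFKFB3, whose product makes the main activator of phosphofructokinase, was at 31.74, 39.99 and 57.54 FPKM in U87MG and 66.14, 57.3 and 59.65 FPKM in U87TR (log2 fold change 0.53, SE 0.17, limma adjusted p = 0.0368). All 3 overlapped with U87MG through replicate 3 alone. Without it their log2 fold changes were 0.89, 1.5 and 0.76 (limma adjusted p = 0.00101, 0.00018 and 0.00131). Each of the 3 calls was lost without U87MG replicate 1 or 2 and without any one of the U87TR libraries. All 3 were also lost without a filter on low values and in the fit on the compared libraries alone. The highest limma adjusted p was 0.164 for SLC2A3, 0.135 for ALDOC and 0.143 for PFKFB3. The SLC2A3 call was also lost without U251MG replicate 1 or U251TR replicate 1, and that of ALDOC with a pseudocount of 0.1 and with the replicate block. PFKM, the muscle-type phosphofructokinase gene, fell by 0.30 on the log2 scale (limma adjusted p = 0.0313), from 63.08, 62.66 and 63.36 FPKM to 51.64, 47.83 and 53.82 FPKM without overlap. That call was lost in 10 of 22 alternatives, which included leaving out any U87MG library or U87TR replicate 1 or 2 (highest adjusted p = 0.162).

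Several central genes were not called with all libraries. SLC2A1 was at 196.79, 160.51 and 155.18 FPKM in U87TR, with U87MG replicate 3 at 181.87 FPKM within its range (log2 fold change 0.99, limma adjusted p = 0.0525, and 1.54, adjusted p = 4.2e-05, without replicate 3). It was also called higher after rescaling to a common sum and with quantile normalization. PGK1 was at 670.65, 761.33 and 1381.24 FPKM in U87MG and 1295.58, 1166.73 and 1139.65 FPKM in U87TR (log2 fold change 0.43, limma adjusted p = 0.144, and 0.75, adjusted p = 0.000342, without replicate 3). None of the 7 genes of lower glycolysis passed with all libraries, and 3 (PGK1, ENO1 and ENO2) rose without replicate 3. LDHA was at 2321.16, 2132.6 and 2090.68 FPKM in U87TR and did not pass either way (log2 fold change 0.067, limma adjusted p = 0.874, and 0.35, adjusted p = 0.179, without replicate 3).

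P4HA1, which codes for a collagen prolyl hydroxylase subunit, rose. Of the 9 remaining HIF targets none rose at the threshold with all libraries in use, but KDM3A lay close to it (log2 fold change 0.51, limma adjusted p = 0.0506). KDM3A was called higher after rescaling to a common sum, with median-of-ratios size factors and with quantile normalization, and without U87MG replicate 3 (0.73, adjusted p = 0.00437). P4HA1 was at 35.1, 40.04 and 80.01 FPKM in U87MG and 114.06, 92.16 and 87.15 FPKM in U87TR, with no overlap. The P4HA1 log2 fold change was 0.99 (SE 0.24, limma adjusted p = 0.00906), and 1.35 (adjusted p = 4.53e-05) without U87MG replicate 3. ADM was at 54.56, 69.71 and 139.48 FPKM in U87MG and 38.31, 32.41 and 30.99 FPKM in U87TR, again with no overlap. Its log2 fold change was -1.24 (SE 0.33, limma adjusted p = 0.0154), -0.85 (adjusted p = 0.0407) without U87MG replicate 3 and -1.18 (adjusted p = 0.0513) without U87TR replicate 3. PDP1 was at 11.04, 11.17 and 9.97 FPKM in U87TR, below all U87MG libraries (log2 fold change -1.28, SE 0.17, limma adjusted p = 0.000146, and -1.52, adjusted p = 2.86e-06, without U87MG replicate 3). VEGFA was at 360.43, 464.49 and 1074.74 FPKM in U87MG and 620.41, 541.02 and 482.72 FPKM in U87TR. It did not pass with replicate 3 (log2 fold change -0.051, limma adjusted p = 0.951) or without it (0.41, adjusted p = 0.315), and its sign turned. Counted by overlap with all U87MG libraries, 1 of the 38 genes was entirely above (18.3% of all genes tested) and 4 were entirely below (28.3%) in U87TR, against 46.6% in either direction.

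Whether a gene's change differed between the lines was tested as the U87 change minus the U251 change. Of the 38 genes, 10 passed, 6 higher and 4 lower (26.3%, against 47.6% of all genes tested, 15.4% higher and 32.1% lower). The median of the 38 was 0.25 and that of all genes -0.172, a shift that median-of-ratios scaling brought to -0.019 and quantile normalization to 0.013. The split was 8 higher and 4 lower with median-of-ratios scaling and 11 and 6 with quantile normalization. The count was 24 (20 higher, 4 lower, against 47.4% of all genes, 15.6% higher and 31.8% lower) without U87MG replicate 3. It was 17 (10 higher, 7 lower, against 54.3%, 17.3% and 37%) without U251MG replicate 2 and 29 (22 higher, 7 lower, against 56.9%, 18.5% and 38.4%) without both. EPAS1 had a difference of -2.47 (SE 0.41, limma adjusted p = 0.000454), as it rose in U251TR and fell in U87TR. For CA12 the difference was -2.14 (SE 0.39, limma adjusted p = 0.00088), with a rise in U251TR and levels of 135.8, 113.15 and 105.15 FPKM in U87TR inside the U87MG range. The CA12 value depended on the amount added before the log, from -4.41 with 0.1 FPKM to -0.73 with 5 FPKM. GPI and LDHA also had the higher change in U251, with differences of -0.74 (limma adjusted p = 0.00294) and -1.02 (limma adjusted p = 0.0202). These 4 differences without U87MG replicate 3 were -2.38 for EPAS1, -1.76 for CA12, -0.64 for GPI and -0.74 for LDHA, and all passed.

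The 6 genes whose change was higher in U87 were SLC2A1 (difference 2.08, SE 0.49, limma adjusted p = 0.00453), PGK1 (1.35, SE 0.29, adjusted p = 0.00242), KDM3A (1.19, SE 0.25, adjusted p = 0.00227), P4HA1 (1.12, SE 0.34, adjusted p = 0.0172), ANKRD37 (0.95, SE 0.31, adjusted p = 0.0236) and PFKFB3 (0.93, SE 0.24, adjusted p = 0.00775). SLC2A1, PGK1, KDM3A and ANKRD37 fell in U251TR and were not called in U87TR with all libraries. Without U87MG replicate 3 the differences were 2.63 for SLC2A1, 1.67 for PGK1, 1.40 for KDM3A, 1.48 for P4HA1, 1.25 for ANKRD37 and 1.15 for PFKFB3. Of the 10 calls, 7 held in all 21 alternatives. LDHA missed the threshold without U251MG replicate 1 and without a filter on low values (highest adjusted p = 0.0511), CA12 with a pseudocount of 5 (0.104), and ANKRD37 in 6 alternatives (0.058), 5 of which left out U251MG replicate 1, U251TR replicate 3, U87MG replicate 1 or 2 or U87TR replicate 3. HIF1A did not pass (difference -0.018, SE 0.38, limma adjusted p = 0.975), but without U251MG replicate 2 its difference was 0.41 (adjusted p = 0.0149). PDP1 fell in both lines, and its difference of 0.27 did not pass, nor did that of 0.034 without U87MG replicate 3.

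Where the genes code for alternative forms of one protein, the lines differed in which form they expressed, in FPKM and so per length of transcript. LDHA made up 2.25% ± 0.32 (SD, n = 3) of the summed LDHA and LDHB level in U251MG and 5.08% ± 0.36 in U251TR, against 79.3% ± 7.2 in U87MG and 80% ± 2 in U87TR. In U87MG the share was 73.3%, 77.4% and 87.3% in replicates 1 to 3. LDHB, which codes for the heart-type subunit, had group means of 432, 411, 521 and 543 FPKM in the same order. The share of SLC16A3 in the summed SLC16A1 and SLC16A3 level was 7.63% ± 1.9 in U251MG, 7.98% ± 0.95 in U251TR, 68.7% ± 3.7 in U87MG and 62.9% ± 3.6 in U87TR (SD, n = 3). PFKFB4, next to PFKFB3, had 15.9% ± 1.9, 14.4% ± 2, 59.1% ± 4.8 and 54.5% ± 0.96 in the same order. The lactate dehydrogenase, monocarboxylate transporter and PFKFB pairs therefore all separated the U251 from the U87 libraries without overlap.

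The balance of the HIF subunit genes and that of the carbonic anhydrase genes differed between resistant line and parent in both lines. EPAS1 made up 2.87% ± 0.41 of HIF1A plus EPAS1 in U251MG and 8.23% ± 0.92 in U251TR, and 48.4% ± 3.7 in U87MG and 31.9% ± 0.3 in U87TR (SD, n = 3), so that its share went up in U251TR and down in U87TR with no overlap in either line. CA12 took 23.8% ± 4.7 of CA9 plus CA12 in U251MG, where both were below 1 FPKM, and 69.2% ± 7.1 in U251TR. In U87MG its share was 71.7%, 61.5% and 36.4% in replicates 1 to 3, and in U87TR 33.2%, 33.2% and 31.5%, close to replicate 3. HK1 was the main hexokinase throughout, with 88.5% ± 3.3, 89.3% ± 0.58, 75.7% ± 4.6 and 76.8% ± 1.6 of HK1 plus HK2 in U251MG, U251TR, U87MG and U87TR. Among the phosphofructokinases PFKP led, at 46.9% ± 7.3, 40.3% ± 0.79, 63% ± 0.88 and 63.8% ± 0.98 in that order. ENO1 made up at least 92% of ENO1 plus ENO2 and ALDOA at least 97.4% of ALDOA plus ALDOC in every library. These shares were described and not tested.

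**Figure D4:**
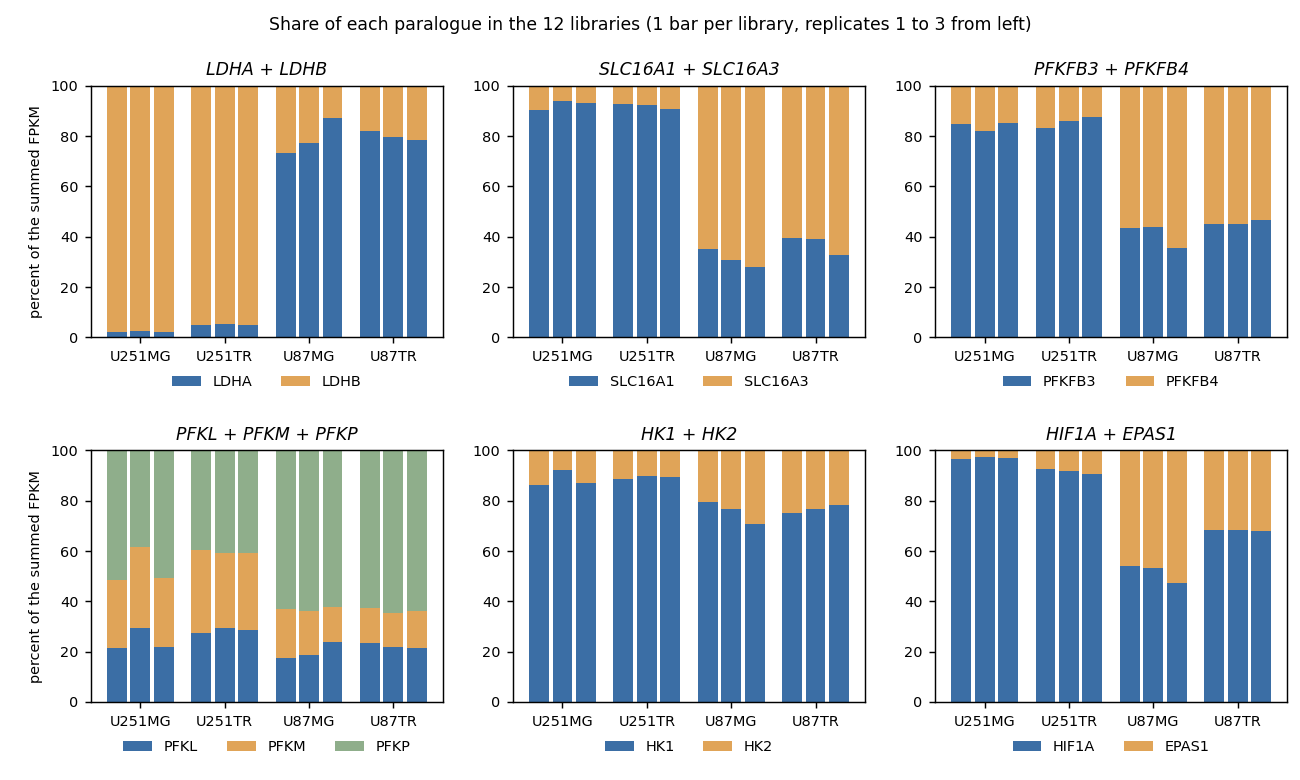
Share of each paralogue in the summed FPKM of its group, in percent, for 6 groups of paralogues, with 1 stacked bar per library and replicates 1 to 3 of each line from the left. LDHA, SLC16A3 and PFKFB4 hold most of their pair in the U87 lines and little in the U251 lines, and compared with the parent the EPAS1 share is higher in U251TR but lower in U87TR.

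Other genes of the same processes were read from 4 further lists. Of 22 other glycolytic genes 10 could be tested, and 7 rose and none fell in U251TR (70%, against 53.2% of all genes tested, with a median log2 fold change of 0.60 against 0.096). The U251TR count was 5 with median-of-ratios size factors. In U87TR 2 rose and none fell (20%, against 27.8%), and 3 rose without U87MG replicate 3 (30%, against 28.7%). PKM, which codes for the pyruvate kinase of the last step, rose in U251TR from 977 ± 304 FPKM to 1331 ± 71.2 FPKM (SD, n = 3, log2 fold change 0.49, limma adjusted p = 0.0221) and was at 2535 ± 249 and 3061 ± 85.6 FPKM in U87MG and U87TR (0.28, adjusted p = 0.23, and 0.35, adjusted p = 0.171, without U87MG replicate 3). HKDC1, a hexokinase-like gene, rose 2.18 (limma adjusted p = 0.00157) and ADPGK, the ADP-dependent glucokinase gene, 0.86 (adjusted p = 8.2e-07) on the log2 scale in U251TR. BPGM, the gene of the mutase that makes bisphosphoglycerate, rose 1.03 (adjusted p = 0.0012) in U87TR. Of 14 genes of mitochondrial pyruvate entry, 5 rose and none fell in U251TR (35.7%, against 53.2% of all genes tested), and 2 rose and 3 fell in U87TR (35.7%, against 27.8%). The U251TR split was 3 and 3 with median-of-ratios size factors, 3 and 2 with quantile normalization and 6 and 3 without U251MG replicate 2, and the U87TR split was 2 and 4 without U87MG replicate 3. PDK4 rose in U251TR (log2 fold change 1.52, limma adjusted p = 3.15e-06). In U87TR the PDK4 change was -0.40 (adjusted p = 0.0541), and it was called lower without U87MG replicate 3 (-0.53, adjusted p = 0.0181). PDK4 averaged 0.863 FPKM in U87MG and 0.4 FPKM in U87TR. PDK3 rose in U87TR (0.94, adjusted p = 0.00778), and MPC2, a subunit gene of the mitochondrial pyruvate carrier, in both (0.72 and 0.69, adjusted p = 0.000226 and 0.000884).

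Of 12 tested genes of the HIF pathway core, 3 rose and 4 fell in U251TR (58.3%, against 53.2% of all genes tested), and 1 rose and 4 fell in U87TR (41.7%, against 27.8%). Leaving out U87MG replicate 3 gave 1 and 5 in U87TR (50%, against 28.7%). ARNT and ARNT2, which code for the partners of the HIF subunits, rose in U251TR (log2 fold change 0.64 and 0.76, limma adjusted p = 0.000163 and 0.000134) and fell in U87TR (-0.53 and -0.77, adjusted p = 0.00184 and 0.000354). CITED2, a HIF-induced inhibitor of HIF, fell in U251TR (-0.53, adjusted p = 0.0187) and rose in U87TR (0.51, adjusted p = 0.0407). EPAS1 had the same directions as ARNT and ARNT2, whereas HIF1A passed in neither line with all libraries. EGLN2, a further HIF prolyl hydroxylase gene of that list, also rose in U251TR (0.211) and fell in U87TR (-0.385, limma adjusted p = 0.0456 and 0.00419). It was named after its values were seen. How many of all genes rose in U251TR and fell in U87TR was not counted. Of 29 other hypoxia-induced genes tested, 8 rose and 7 fell in U251TR (51.7%, against 53.2% of all genes), and 13 rose and 9 fell there without U87MG replicate 3 (75.9%, against 55%). In U87TR 7 rose and 2 fell with all libraries (31%, against 27.8% of all genes), and 19 rose and 2 fell without U87MG replicate 3 (72.4%, against 28.7%). LOX, the lysyl oxidase gene, rose from 1.35 ± 0.22 to 17.9 ± 0.81 FPKM in U251TR (SD, n = 3, log2 fold change 3.01, limma adjusted p = 1.55e-05). TMEM45A, a membrane protein gene, fell in U251TR (-2.59, adjusted p = 4.95e-05) and rose in U87TR (1.32, adjusted p = 0.0123). P4HA2, which codes for a further collagen prolyl hydroxylase subunit, rose in both (1.79 and 0.83, adjusted p = 1.63e-05 and 0.0102). Without U87MG replicate 3 the named genes that passed in U87TR all still passed. Their changes were then 1.81 for TMEM45A, 1.11 for P4HA2, 0.74 for CITED2, -0.54 for ARNT, -0.88 for ARNT2 and -0.421 for EGLN2. Those of BPGM, PDK3 and MPC2 were 1.05, 1.23 and 0.82. The 4 lists, like the 38 genes, were chosen with earlier results of these data known, so their counts are no independent evidence of a direction.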

How the data were processed

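Expression of the 38 genes was read from a matrix of 31681 gene symbols and 12 libraries, 3 from each of U251MG, U251TR, U87MG and U87TR. The values deposited by the authors are treated as FPKM. No label states the unit, and it was inferred because each value times transcript length summed to 0.80 to 0.85 of what FPKM would give over 19974 matched symbols. RSEM 1.2.31 and STAR 2.5.2b are named in the submitters' processing notes. The build is hg19 there and hg38 in the design text, so no coordinate was taken from the deposited data. The printed coordinates are those of RefSeq's promoter windows, which carry their own build (GRCh38.p14). The 27 symbols turned into dates were left out.

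The 15449 genes that reached 1 FPKM in 3 or more libraries were fitted as log2(FPKM + 1) with limma 3.58.1 (R 4.3.3), a group mean for each line over all 12 libraries, a variance trend and robust moderation. Contrasts set each resistant line against its parent, the U87 change against the U251 change, and U87MG against U251MG. These comparisons share libraries. Adjusted p-values are Benjamini-Hochberg over all genes tested, from two-sided tests, and fold changes are of FPKM + 1, which shrinks those of low genes. Its script was checked first on simulated data with known changes. Shares of paralogues are of summed FPKM.

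The members and lists were chosen with earlier results of these data known. By rule, a fold change is given for HIF1A and EPAS1 and for called members, up to 10 per direction by size, plus PKM and up to 3 called genes of each other list. Alternatives were a pseudocount of 0.1 or 5, a filter of 5 FPKM or none, 3 scalings, a replicate block, a fit on the compared libraries alone and leaving out each library. Leaving out U251MG replicate 2 and U87MG replicate 3 together was added after seeing the data. Some listed markers are not analysed here.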

Additional observations from a re-analysis of the deposited data

Results flagged for a closer look

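The change with resistance differed between the 2 lines for 10 of the 38 genes, by the limma test of the U87 change minus the U251 change (adjusted p under 0.05 over all genes tested, as for 47.6% of them). The differences in log2 fold change were -2.47 for EPAS1, -2.14 for CA12, -1.02 for LDHA and -0.743 for GPI, all with the higher change in U251. They were 2.08 for SLC2A1, 1.35 for PGK1, 1.19 for KDM3A, 1.12 for P4HA1, 0.948 for ANKRD37 and 0.928 for PFKFB3, all with the higher change in U87. The levels behind them stand with the comparison above. Single libraries were not tested as outliers in groups of 3.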

How the results depend on the processing

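Of the 38 genes, the number called between the parents stayed between 28 and 34 of 38 under every alternative, against 31. In U251TR it was 14, with 8 to 23 when 1 library was left out and 29 without both U251MG replicate 2 and U87MG replicate 3. In U87TR it was 9, with 4 to 24 when 1 library was left out, 5 without a filter on low values and 32 without both libraries. For the difference between the lines it was 10, with 8 to 24 when 1 library was left out, 17 with quantile normalization and 29 without both libraries. Some single genes changed sign, none of them called with all libraries. HIF1A in U251TR was 0.024 after rescaling to TPM and ran from -0.518 to 0.136 with 1 library left out. LDHA in U87TR ran from -0.139 to 0.349, and VEGFA in U87TR from -0.374 to 0.413, with 0.413 without both libraries. The difference for HIF1A was 0.164 with median-of-ratios scaling, 0.0058 with quantile normalization and 0.381 without both libraries, and ran from -0.242 to 0.411 with 1 library left out. The cause was not tested. Replicate numbers do not pair the samples: deviations of same-numbered libraries correlated between -0.058 and 0.13. With the replicate block the counts were 12 in U251TR, 8 in U87TR, 11 for the difference and 31 between the parents. The fit on the compared libraries alone was not run for the difference, which needs all 4 groups. Depth is unknown, so levels below 1 FPKM carry no interval.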
